A study of Homo sapiens with 6 samples.

Results

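Notch signalling was examined in HCT116 cells, a human epithelial line from a colorectal carcinoma, through 10 of its genes: the receptors NOTCH1, NOTCH2 and NOTCH3, the ligands JAG1, JAG2 and DLL1, the DNA-binding factor RBPJ, and the targets HES1, HEY1 and NRARP. They were chosen by name, and every probe set whose gene symbol field named one of them was taken, which gave 28 of the 54613 probe sets that are not array controls. A gene was read on its brightest probe set, judged by the mean of the 6 arrays, so 10 of 19775 measured genes are described. The treated cells received a CDK4 siRNA pool and a CDK6 siRNA, 30 nM of each (CDK4/6 siRNA), and the control cells a non-targeting pool and a negative control siRNA, also 30 nM of each (control siRNA). RNA was taken 96 h later from 3 samples labelled as biological replicates in each group. The labels do not say that these were separate cultures, so p-values measure the spread between these samples. All the cells came from 1 line, in both groups, and the siRNAs lowered their targets without removing them. CDK4 and CDK6 are the kinases that, with D-type cyclins, phosphorylate the retinoblastoma protein in G1.

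Notch receptors are single-pass membrane proteins that are cut when a ligand of the Jagged or Delta type on a neighbouring cell binds and pulls on them. Gamma-secretase then frees the intracellular domain, which enters the nucleus, binds RBPJ and, with a Mastermind protein, switches on genes such as HES1, HEY1 and NRARP. In the intestinal epithelium the pathway keeps progenitor cells dividing and, through the repressor HES1, holds back the secretory lineages. The arrays measure RNA, and neither cleavage of the receptors nor binding of RBPJ was measured.

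All values are log2 expression as deposited, and a log2 fold change is CDK4/6 siRNA minus control siRNA with its standard error (SE), n = 3 arrays per group. A gene was called higher or lower at a limma adjusted p under 0.05 over all genes. CDK6 was 10.42, 10.41 and 10.35 in the control arrays and 8.81, 8.82 and 8.88 in the CDK4/6 siRNA arrays, and CDK4 was 10.26, 10.29 and 10.07 against 9.45, 9.46 and 9.65. Both targets were thus lower in every CDK4/6 siRNA array, CDK6 at 34.0% and CDK4 at 62.2% of the control level (limma adjusted p = 7.19e-06 and 0.000430). Among 10 colorectal epithelial markers EPCAM, KRT19 and KRT18 had control means of 12.80, 13.16 and 13.02, while the intestinal markers CDX2, VIL1, CDH17 and LGALS4 were dim at 5.57, 5.02, 4.18 and 4.46. Of these 10 markers 3 were called, KRT8 (0.59) and KRT18 (0.51) higher and the adhesion protein CDH1 (-0.54) lower, where 26.8% of all genes were called, 14% higher and 12.9% lower. Of 9 measured markers of leukocytes, endothelium and fibroblasts 0 were called by limma and 0 had an unadjusted p under 0.05 (18.4% of all genes were higher and 17.8% lower at that cut), and their levels ran from 3.83 to 6.73. The 3' minus 5' difference of the GAPDH controls, a sign of RNA integrity, was 0.077 in control and 0.087 in CDK4/6 siRNA arrays (exact permutation p = 0.8), and that of ACTB was 1.45 and 1.43 (exact permutation p = 0.9).

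The ligands moved in opposite directions and the nuclear factor and its best-known target fell together. Of the 10 genes, 2 were called higher (JAG1 and JAG2) and 4 lower (RBPJ, DLL1, HES1 and NOTCH1), while NOTCH2, NOTCH3, HEY1 and NRARP did not pass. Over all genes the shares called were 26.8% in all, 14% higher and 12.9% lower. The values of the groups did not overlap in 9 of the 10, with HEY1 the exception, against 40.9% of all genes. Of the 9, 2 were higher and 7 lower, against 20.6% and 20.3%. Some gaps were narrow. The lowest control and highest CDK4/6 siRNA arrays were 10.90 and 10.88 for NOTCH2, 6.32 and 6.28 for NOTCH3, and 8.32 and 8.27 for NRARP. Changes were modest: the median size was 0.30 on the log2 scale, against 0.11 over all genes tested, and the largest was 0.61. The figures for all genes include dim genes, whereas the 10 had mean levels from 5.55 to 11.17. With genes under the median level of 6.47 left out, the fit and its adjustment were run again. In that refit 5615 of the remaining genes were called, against 5307 of the full set of 19775. More calls among fewer genes make a larger share, so the shares for all genes are a low baseline for the 10. The adjustment also differs between these fits, so the rise cannot be put down to level alone. Whether the 10 changed more often than genes of similar level was not tested. In a bulk measurement a lower level in each cell and fewer cells that express a gene cannot be told apart.

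**Figure D1:**
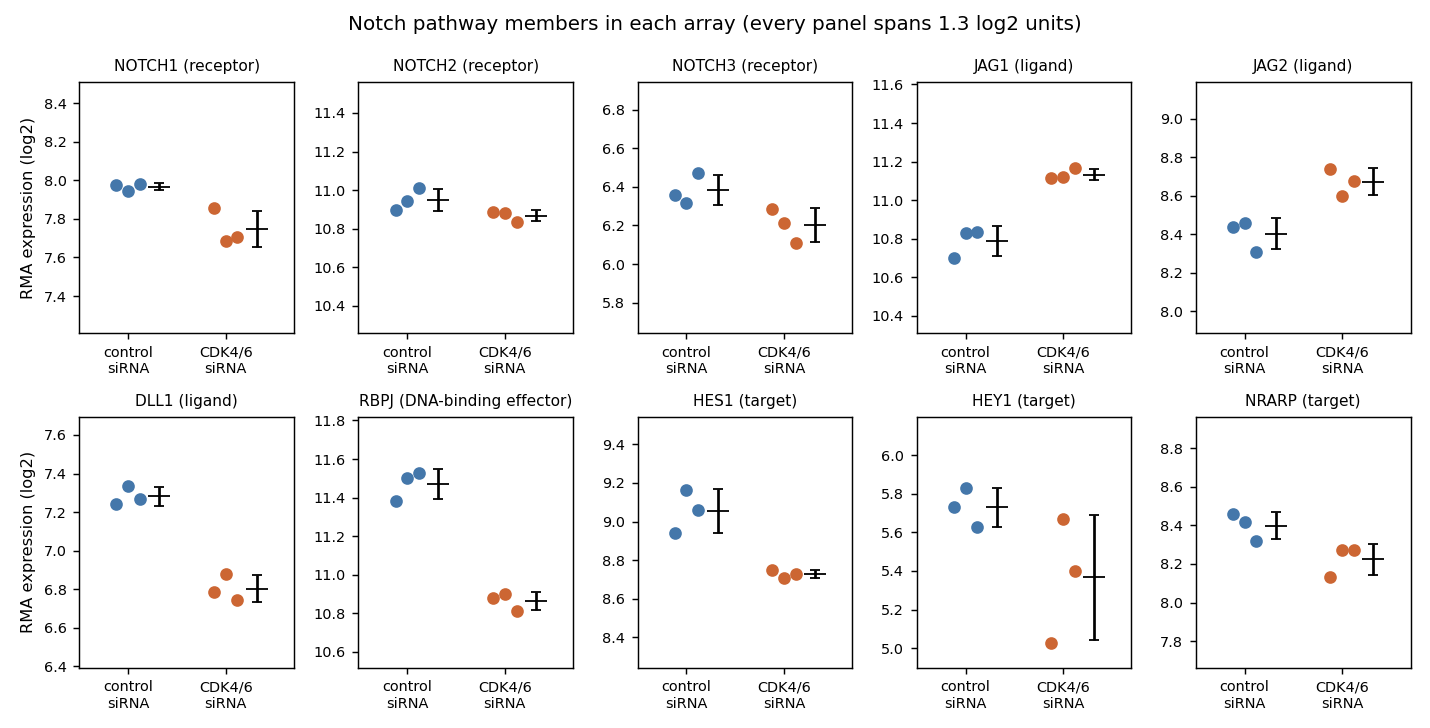
Each panel plots 1 gene's log2 RMA expression in the 3 control siRNA arrays (blue) and the 3 CDK4/6 siRNA arrays (orange), with the mean and SD of each group beside the points in black; all panels span the same number of log2 units. RBPJ, DLL1, JAG1 and JAG2 show the groups clearly apart, and the HEY1 values overlap.

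RBPJ, which binds DNA and carries either corepressors or the Notch intracellular domain, changed most. Its values were 11.38, 11.50 and 11.53 in the control arrays and 10.88, 10.90 and 10.81 in the CDK4/6 siRNA arrays. Every CDK4/6 siRNA array lay below every control array, by far more than the spread within either group. The level fell by 0.61 (SE 0.062), to 65.7% of control, from 11.47 ± 0.08 to 10.86 ± 0.05 (SD; limma adjusted p = 0.000215). The 3 RBPJ probe sets gave -0.61, -0.64 and -0.64, at mean levels of 11.17, 10.68 and 4.90, the last of them dim. With adjustment over all probe sets, of which 17% were called (8.86% higher and 8.17% lower), each of the 3 passed (limma adjusted p = 0.000433, 0.00104 and 0.00175). The genome holds RBPJ pseudogenes, and the brightest probe set carries the suffix that marks probes shared with other transcripts, so part of its signal can come from those copies. That share was not tested.

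HES1, a basic helix-loop-helix repressor and the standard readout of Notch activity, was 8.94, 9.17 and 9.06 in control arrays and 8.75, 8.71 and 8.73 in CDK4/6 siRNA arrays. The CDK4/6 siRNA arrays were tightly grouped and all below the lowest control. HES1 fell by 0.33 (SE 0.067), to 79.8% of control (limma adjusted p = 0.00664). A second probe set at a mean level of 7.41 fell by 0.43 (limma adjusted p = 0.00495 over probe sets). The third, the only HES1 probe set with a plain name, lay near the floor of the array at 3.50 and gave 0.013 (SE 0.060), which shows no direction.

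Both remaining targets were lower in the mean without passing. HEY1, a repressor of the HES-related family, was 5.73, 5.83 and 5.63 in control arrays and 5.03, 5.67 and 5.40 in CDK4/6 siRNA arrays. Replicate 2 of the CDK4/6 siRNA group reached into the control range, which left a difference of -0.36 with a wide 95% interval, -0.68 to -0.043 (limma adjusted p = 0.0945). Without that array the difference was -0.52 and passed (limma adjusted p = 0.0126), and across the 6 arrays left out in turn it ran from -0.52 to -0.19. The mean of both HEY1 probe sets gave -0.33 and passed (limma adjusted p = 0.0234). The second HEY1 probe set, dim at 5.20, did not overlap between groups and fell by 0.30 (limma adjusted p = 0.0158 over probe sets). NRARP, an ankyrin-repeat protein that is induced by Notch and promotes loss of the intracellular domain, had 1 probe set. Its values of 8.46, 8.42 and 8.32 in control arrays lay just above those of 8.13, 8.27 and 8.27 in CDK4/6 siRNA arrays. The difference was -0.17 (95% interval -0.32 to -0.026, limma adjusted p = 0.0842). It passed when genes under a mean level of 6.47 were left out (limma adjusted p = 0.0285) and with a variance trend and robust fit (limma adjusted p = 0.0464); over all its alternatives the adjusted p ran from 0.0285 to 0.544.

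Promoter sequences from RefSeq are shown for 3 called genes, picked after their values were seen: HES1 and RBPJ, which fell and hold letters of the RBPJ motif, and JAG1, which rose. The 250 bases before the transcription start site were searched on both strands for TGGGAA, the core of the RBPJ motif, and for GTGGGAA, which contains it. Matches are in capitals, and positions count back from the start site. In build GRCh38.p14 the windows were chr3:194135898-194136147 on the plus strand for HES1 and chr20:10674000-10674249 on the minus strand for JAG1. For RBPJ the window before 1 of its 5 start sites is shown, chr4:26319496-26319745 on the plus strand:
HES1: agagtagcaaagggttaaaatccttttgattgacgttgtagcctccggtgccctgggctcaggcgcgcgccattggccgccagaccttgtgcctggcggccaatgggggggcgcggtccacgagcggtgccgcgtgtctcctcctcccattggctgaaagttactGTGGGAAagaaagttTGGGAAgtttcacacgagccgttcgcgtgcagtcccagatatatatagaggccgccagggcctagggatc
RBPJ: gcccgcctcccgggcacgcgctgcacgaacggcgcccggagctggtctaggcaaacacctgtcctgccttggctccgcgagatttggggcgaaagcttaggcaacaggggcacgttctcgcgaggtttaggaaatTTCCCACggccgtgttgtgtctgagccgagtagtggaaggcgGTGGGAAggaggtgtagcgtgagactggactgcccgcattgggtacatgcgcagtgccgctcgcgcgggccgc
JAG1: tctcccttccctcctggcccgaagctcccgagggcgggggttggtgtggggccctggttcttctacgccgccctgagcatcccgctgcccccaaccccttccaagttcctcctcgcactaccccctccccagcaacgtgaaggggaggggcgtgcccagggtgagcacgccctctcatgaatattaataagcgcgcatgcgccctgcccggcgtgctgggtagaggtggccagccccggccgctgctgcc

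The HES1 promoter held GTGGGAA from -85 to -79 and the core again from -70 to -65, both in the same orientation. RBPJ has 5 start sites in the table, and 1 of their windows held matches, GTGGGAA from -73 to -67 and its reverse complement from -115 to -109. No match stood in the windows of JAG1, JAG2, NOTCH1, NOTCH2, NOTCH3 or NRARP, and of these NOTCH1 was also called lower. In all, 2 of the 12 windows searched for 8 of the genes held the core. Of 35097 promoter windows of the same length in the table, 20.9% held the core and 5.43% the longer form. These are descriptions of letters in a window, and the arrays say nothing of what binds there.

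The ligands split by family, the Jagged pair rising and the Delta ligand falling. JAG1, a Jagged-type ligand and itself a target of several pathways, was 10.70, 10.83 and 10.84 in control arrays and 11.11, 11.12 and 11.16 in CDK4/6 siRNA arrays. The lowest CDK4/6 siRNA array stood well above the highest control. JAG1 rose by 0.34 (SE 0.059), 1.27-fold, from 10.79 ± 0.08 to 11.13 ± 0.03 (SD; limma adjusted p = 0.00275). Of its 6 probe sets the 4 brightest, at mean levels of 10.96, 10.84, 8.25 and 7.48, rose by 0.34, 0.37, 0.38 and 0.51 (limma adjusted p over probe sets from 0.000846 to 0.00963). The 2 dim ones, at 5.71 and 4.55, gave 0.043 and 0.082 and did not pass.

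JAG2, the other Jagged ligand, was 8.44, 8.46 and 8.31 in control arrays and 8.74, 8.60 and 8.68 in CDK4/6 siRNA arrays. The groups were apart, with replicate 2 of the CDK4/6 siRNA group the nearest to the controls. JAG2 rose by 0.27 (SE 0.065), 1.21-fold (limma adjusted p = 0.0142). Its second probe set, at 8.04, gave 0.16 with no overlap between groups and did not pass over probe sets (limma adjusted p = 0.130). Without replicate 1 of the CDK4/6 siRNA group the call ended (0.24, limma adjusted p = 0.0513), as it did without variance moderation (adjusted p = 0.0557).

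DLL1, a Delta-type ligand that in the intestine is made by early secretory cells, was 7.24, 7.34 and 7.27 in control arrays and 6.79, 6.88 and 6.74 in CDK4/6 siRNA arrays. Both groups were tight and far apart. DLL1 fell by 0.48 (SE 0.060), to 71.8% of control (limma adjusted p = 0.000547). A dim second probe set at 4.99 gave -0.16 with overlapping groups (limma adjusted p = 0.221 over probe sets).

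**Figure D2:**
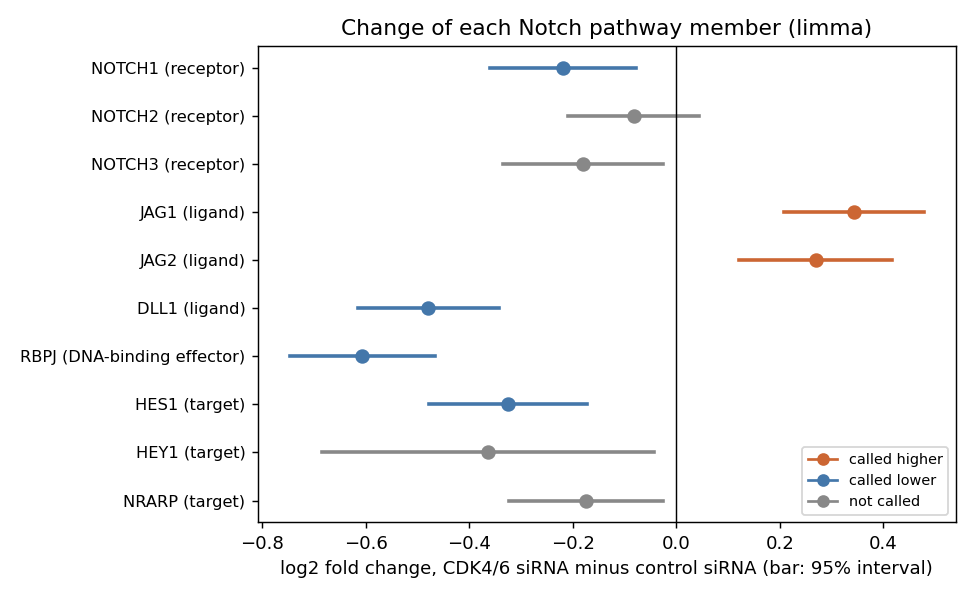
Points are the log2 fold changes of the 10 genes, CDK4/6 siRNA minus control siRNA, on the probe set that stands for each gene, and bars are 95% intervals from limma. The Jagged ligands lie to the right of 0 and DLL1, RBPJ, HES1 and NOTCH1 to the left; of the 4 genes in grey only the NOTCH2 interval crosses 0.

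Within each array the log2 level of JAG1 minus that of DLL1 went from 3.51 ± 0.06 (SD) in control arrays to 4.33 ± 0.09 in CDK4/6 siRNA arrays, a change of 0.82 that no shift of a whole array can alter. For JAG2 minus DLL1 the difference went from 1.12 ± 0.08 to 1.87 ± 0.13, a change of 0.75. In both pairs the lowest CDK4/6 siRNA array lay above the highest control array. JAG1 minus JAG2 changed by 0.074, within the spread of the arrays (exact permutation p = 0.6). In all, 6 pairs of paralogs were compared, and both Jagged against Delta pairs gave a two-sided exact permutation p of 0.1, or 0.2 after Benjamini-Hochberg adjustment; 0.1 is the smallest p that 3 arrays against 3 allow. When all probe sets of each gene were averaged, the changes were 0.61 for JAG1 minus DLL1 and 0.53 for JAG2 minus DLL1.

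Among the receptors the differences were small and all negative on the probe set that stands for the gene. NOTCH1 was 7.98, 7.94 and 7.98 in control arrays and 7.85, 7.69 and 7.70 in CDK4/6 siRNA arrays, lower in every CDK4/6 siRNA array. It fell by 0.22 (SE 0.062), to 85.9% of control (limma adjusted p = 0.0287). Of the 6 calls among the 10 genes this one was lost under the most alternatives, 9 of 19. It ended when any 1 array other than replicate 1 of the CDK4/6 siRNA group was left out, with values of -0.23 to -0.19 (limma adjusted p from 0.0625 to 0.101). It also ended with the arrays scaled to the hybridisation spike-ins (-0.11), with the mean of both NOTCH1 probe sets (-0.11) and without variance moderation. The dim second probe set, at 5.29, gave -0.0071, and over all probe sets the first did not pass either (limma adjusted p = 0.0545).

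NOTCH2, the receptor with 5 probe sets, gave no single answer. On the brightest one the control arrays were 10.90, 10.94 and 11.01 and the CDK4/6 siRNA arrays 10.88, 10.88 and 10.84, a difference of -0.082 (95% interval -0.21 to 0.044, limma adjusted p = 0.346), which turned to 0.026 with the spike-in scaling. A probe set at 10.04 gave -0.054 and one at 5.80 gave 0.017. The remaining pair pointed in opposite directions at similar levels. One at 7.64 gave 0.21 with all CDK4/6 siRNA arrays above the controls (limma adjusted p = 0.0993 over probe sets). The other, at 7.52, fell by 0.30, from 7.66, 7.70 and 7.66 to 7.40, 7.26 and 7.45 (limma adjusted p = 0.0145 over probe sets). That probe set also names NOTCH2NLA, NOTCH2NLB, NOTCH2NLC and NOTCH2NLR, partial copies of NOTCH2, so its fall cannot be assigned to NOTCH2.

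NOTCH3, a receptor known best from vascular smooth muscle, was dim. Its values were 6.36, 6.32 and 6.47 in control arrays and 6.28, 6.21 and 6.11 in CDK4/6 siRNA arrays, which do not overlap, and the difference was -0.18 (95% interval -0.33 to -0.026, limma adjusted p = 0.0853). The second probe set gave -0.055. The exact permutation p of the within-array differences was 0.1 for NOTCH1 minus NOTCH2, which changed by -0.14, 0.2 for NOTCH2 minus NOTCH3 and 0.5 for NOTCH1 minus NOTCH3 (0.2, 0.3 and 0.6 after Benjamini-Hochberg adjustment over the 6 pairs).

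**Figure D3:**
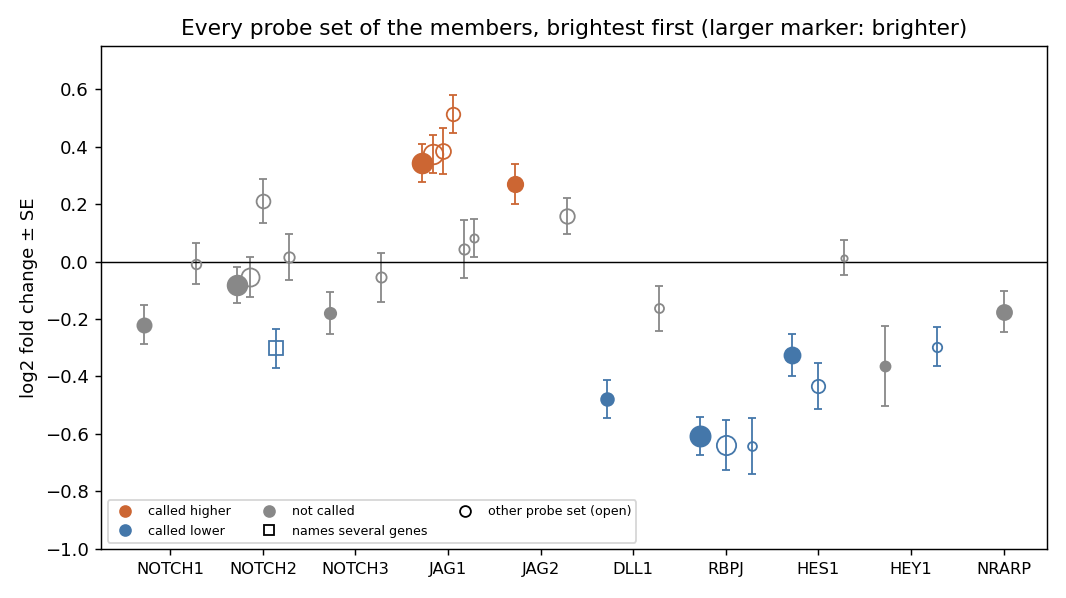
All 28 probe sets of the 10 genes are plotted with their log2 fold change and SE from limma over all probe sets, from the brightest to the dimmest within each gene; larger markers are brighter, filled markers stand for the gene, and the square names several genes. RBPJ is lower on 3 of 3 probe sets and JAG1 higher on its 4 brightest, whereas the NOTCH2 probe sets lie on both sides of 0.

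Other genes of the pathway were read from lists written by role, with 84 of 91 listed genes measured. Together 10 of the 84 were higher and 17 lower, beside the 14% and 12.9% of all genes, with a median of -0.039. Scaling alters this balance. Control RNAs spiked into the hybridisation averaged 10.25 in control and 10.15 in CDK4/6 siRNA arrays. Once they were set equal between arrays, the median over all genes became 0.11, and 78.2% of the called genes were higher against 52% as deposited. Of all 19775 genes 4731 were then higher and 1320 lower, and the 84 split into 17 higher and 8 lower. The 10 members split 2 higher and 3 lower under that scaling, since NOTCH1 lost its call.

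Among enzymes that glycosylate and cut the receptors, 2 that add sugars rose. Of 13 measured genes of this kind 3 were higher and 2 lower, beside 14% and 12.9% of all genes. With the spike-in scaling the counts were 6 and 0. LFNG, a Fringe enzyme that lengthens O-fucose on Notch and thereby favours Delta over Jagged ligands, was 6.83, 6.86 and 6.70 in control arrays and 7.48, 7.40 and 7.27 in CDK4/6 siRNA arrays. It rose by 0.59, 1.50-fold (limma adjusted p = 0.000535), and by 0.34 as the mean of its probe sets. POGLUT1, which adds O-glucose to Notch, rose by 0.46 (limma adjusted p = 0.00264) and PSEN2, a catalytic subunit of gamma-secretase, by 0.29 (limma adjusted p = 0.0105). FURIN, the protease that cuts the receptor on its way to the surface, fell by 0.22 (limma adjusted p = 0.0149), a call lost with the spike-in scaling (-0.11).

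Of 14 genes for ligand ubiquitination and receptor trafficking, 1 was higher and 5 lower, beside 14% and 12.9% of all genes. With the spike-in scaling the counts were 2 and 2. NEURL1B, an E3 ligase that sends ligands into endocytosis, was 8.07, 8.06 and 8.05 in control arrays and 7.64, 7.53 and 7.65 in CDK4/6 siRNA arrays, and fell by 0.45 (limma adjusted p = 0.000534). MIB1, the main E3 ligase for ligand endocytosis in mammals, fell by 0.32 (limma adjusted p = 0.00246). Its relative MIB2 fell by 0.22 (limma adjusted p = 0.0191), but the mean of all MIB2 probe sets gave -0.027. DTX3L, a Deltex-type ligase that is also induced by interferon, rose by 0.54 (limma adjusted p = 0.000578).

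Of 20 measured coactivators and corepressors of RBPJ, 2 were higher and 5 lower, beside 14% and 12.9% of all genes. With the spike-in scaling the counts were 3 and 3. TLE2, a Groucho-type corepressor that HES proteins recruit, fell by 0.57 (limma adjusted p = 0.000384), and BEND6, which binds RBPJ and dampens Notch targets, by 0.53 from a dim control mean of 5.96 (limma adjusted p = 0.000623), or -0.35 as the mean of its probe sets. The acetyltransferases went opposite ways, KAT2A 0.31 higher and KAT2B 0.38 lower (limma adjusted p = 0.00434 and 0.0111).

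In the wider HES and HEY family 3 of 9 fell and 0 rose by limma, beside 12.9% and 14% of all genes. At an unadjusted p under 0.05, 3 fell and 1 rose, where 17.8% of all genes were lower and 18.4% higher. With the spike-in scaling 2 fell and 2 rose by limma. BHLHE40 and BHLHE41, related repressors that are also induced by hypoxia and the circadian clock, fell by 1.01 and 1.16 (limma adjusted p = 3.64e-05 and 8.53e-05). Averaged over its probe sets BHLHE41 gave -0.33. On the plain-name BHLHE41 probe set the difference was 0.11, below the threshold for a call. HES7, a dim gene, fell to 82.6% of control (limma adjusted p = 0.0447), a call that ended under 12 of 18 alternatives. Of 5 other receptors and ligands, 1 was higher and 1 lower, beside 14% and 12.9% of all genes. DNER, a ligand-like membrane protein, rose by 0.37 and DLL3, which acts inside the cell against Notch, fell by 0.22 (limma adjusted p = 0.0402 and 0.0474). These calls were lost under 8 of 19 and 13 of 17 alternatives, and the mean of the DLL3 probe sets was -0.036 (limma adjusted p = 0.681).

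Of 11 measured genes listed as other Notch targets, 3 were higher and 0 lower by limma, beside 14% and 12.9% of all genes. At an unadjusted p under 0.05 the counts were 3 and 1, beside 18.4% and 17.8% of all genes. CCND1, cyclin D1, rose by 0.93, MYC by 0.42 and the adhesion receptor CD44 by 0.22 (limma adjusted p = 3.64e-05, 0.00101 and 0.0251), and each of these is controlled by many other pathways. The mean of all CD44 probe sets was lower instead, at -0.24 (limma adjusted p = 0.0133). Of 12 secretory lineage genes, which HES1 restrains in the intestine, 0 rose and 1 fell by limma, beside 14% and 12.9% of all genes. At an unadjusted p under 0.05, 0 rose and 2 fell, beside 18.4% and 17.8%. Several of the 12 were dim, such as ATOH1, NEUROG3, CHGA and INSM1 at mean levels of 5.03, 4.43, 3.77 and 3.41, while the brightest reached 10.48. For such dim genes the counts cannot tell an unchanged gene from one that is not expressed. The gene that passed was KLF4, a zinc-finger factor of goblet cells, which went from 10.83, 11.02 and 11.05 in control arrays to 10.00, 10.04 and 9.93 in CDK4/6 siRNA arrays, a fall to 50.9% of control (limma adjusted p = 6.81e-05).

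**Figure D4:**
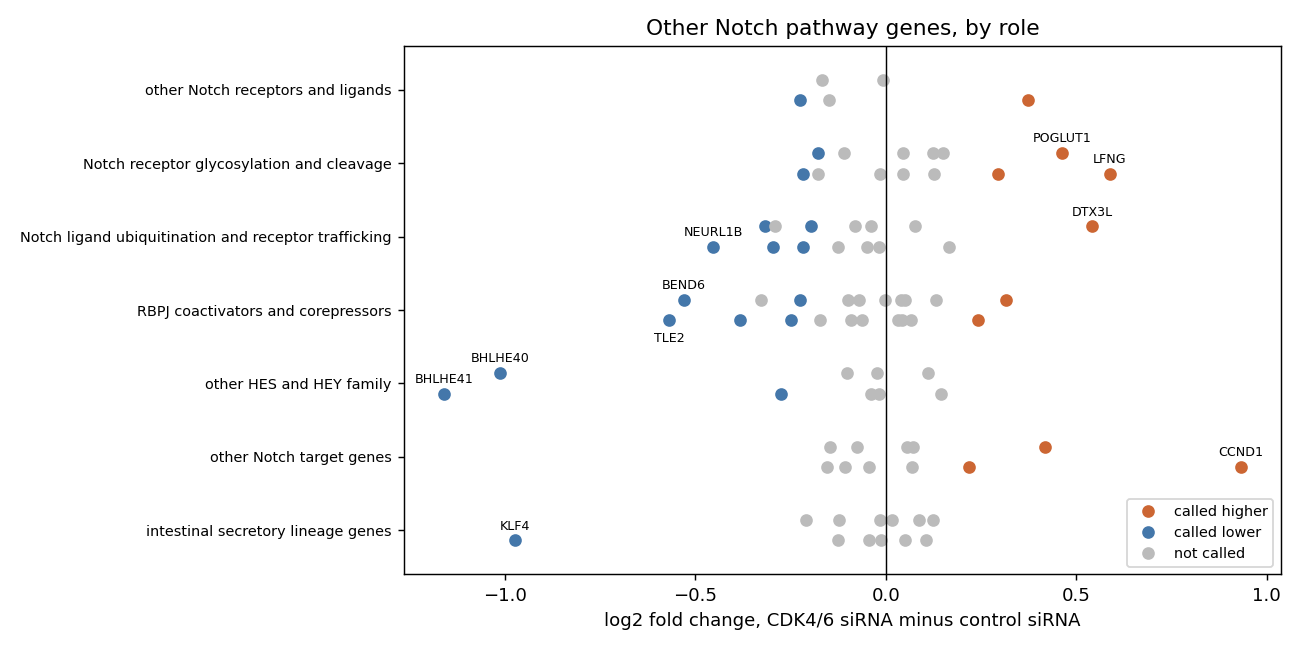
Each point is 1 of 84 measured pathway genes outside the 10 described above, placed by its log2 fold change and grouped by role, with genes beyond 0.45 in either direction named. LFNG, POGLUT1, DTX3L and CCND1 stand out to the right and BHLHE41, BHLHE40, KLF4, TLE2, BEND6 and NEURL1B to the left, with most genes near 0.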

How the data were processed

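Gene expression was measured on 6 single-channel Affymetrix arrays, 3 per group. The authors deposited log2 values made with RMA, per the submitters' processing notes; its version is not given in the sources used here. RMA equalises the arrays, so a change is relative to the bulk of probe sets, and it compresses changes of dim ones. No detection calls were used, and the number of arrays limits the precision. Of 54675 probe sets 62 were controls; the platform annotation gave 1 symbol to 41097, several to 1801 and none to 11777.

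Genes were fitted in limma 3.58.1 (lmFit, eBayes; R 4.3.3), no covariate beside group, with Benjamini-Hochberg adjustment over 19775 genes, and separately over 54613 probe sets. Single values were compared by two-sided exact permutation. The fit was tested on simulated data. Figures used matplotlib 3.10.9. The members, gene lists and tests were chosen with earlier results of these data known. All members were named, with CDK4, CDK6 and, from each list, up to 4 called genes with the smallest adjusted p. Some genes of those lists were not analysed here. HEY1 and DLL1 promoters were not used here. Alternatives covered scaling, probe set choice, filters, variance options, a replicate block and each array left out.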

Additional observations from a re-analysis of the deposited data

How the results depend on the processing

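RBPJ, DLL1 and JAG1 kept their direction and their call under every alternative that gave a value, 19, 18 and 18 in number, with ranges of -0.65 to -0.50, -0.52 to -0.32 and 0.29 to 0.45. NOTCH1 lost its call under 9 of 19 and JAG2 under 3 of 19. On plain-name probe sets 1 member was higher and 2 lower, with JAG1, DLL1, NOTCH2 and NOTCH3 having no such probe set; there HES1 gave 0.013 and BHLHE41 0.11. With the spike-in scaling 4731 genes were higher and 1320 lower, against 2762 and 2545, and NOTCH2 turned to 0.026. With the mean of all probe sets CD44 turned to -0.24 and the change of NOTCH1 minus NOTCH3 to 0.0045. Without variance moderation 1 member was higher. At a threshold of 0.01, 1 member was higher and 3326 genes were called, 1803 higher and 1523 lower. With 1 array left out, 1 to 2 members were higher and 3 to 4 lower. The cause of these shifts was not tested, and some alternatives also use fewer genes or arrays. Same-numbered arrays did not deviate together (r across genes -0.010, -0.12 and -0.0066), and no array correlated best with the array of its own number. With the replicate number as a block 4738 genes were called in place of 5307, 2 members were higher and 5 lower, HEY1 passed (adjusted p = 0.0392), and DNER (0.0576) and CD44 (0.0556) did not. The number of arrays limits what can be told. For HEY1, NOTCH3 and the dim second probe sets, so does a signal under the median gene level of 6.47.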
